A study of Mus musculus with 6 samples.

Results

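The 10 genes described here encode enzymes, or subunits of enzymes, that produce or consume α-ketoglutarate (αKG) around the tricarboxylic acid (TCA) cycle. They were chosen from the pathway as *Idh1*, *Idh2*, *Idh3a*, *Idh3b*, *Idh3g*, *Ogdh*, *Dlst*, *Dld*, *Glud1* and *Got2*, and each was matched by its symbol to 1 entry among the 16448 genes of the deposited table. RNA-seq was carried out on cardiomyocytes (CMs) of adult C57BL/6 mice aged 8 to 12 weeks, isolated by enzymatic digestion of the perfused heart. *Cpt1b* encodes the muscle form of carnitine palmitoyltransferase 1, the gate through which long-chain fatty acids enter mitochondria, and the comparison asked how the CM transcriptome differs once that gate is removed. CtrlCre mice (αMHC-Cre pos/+; Cpt1b +/+, 3 libraries) and Cpt1bcKO mice (αMHC-Cre pos/+; Cpt1b fl/fl, 3 libraries) both carried Cre, so the transgene itself was common to both groups. Cre was driven by the cardiac α-myosin heavy chain promoter and inactivated *Cpt1b* in CMs before birth. Recombination removes a pair of *Cpt1b* exons, so reads from the remaining exons are still counted. The labels number the libraries 1 to 3 in each group without naming the animals, and *P* values therefore measure the spread between these samples.

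αKG is a branch point of the TCA cycle. It is made from isocitrate by isocitrate dehydrogenases, namely the NAD+-dependent IDH3 of mitochondria, a multi-subunit enzyme with the catalytic subunit IDH3A, and the NADP+-dependent enzymes IDH2 (mitochondria) and IDH1 (cytosol and peroxisomes), and it is used by the 2-oxoglutarate dehydrogenase complex, which turns it into succinyl-CoA. Glutamate and αKG are interconverted by glutamate dehydrogenase (GLUD1) and by aminotransferases such as GOT2, the mitochondrial aspartate aminotransferase of the malate–aspartate shuttle, and αKG is also the co-substrate of dioxygenases that demethylate histones and DNA.

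Promoter sequence from RefSeq on the mouse build GRCm38.p6 could be matched for 9 of the 10 genes, and 3 windows of 130 bases upstream of an annotated start are shown, each ending at the base before that start. For *Ogdh* the promoter set held 6 starts, and the window and its motifs belong to 1 of them. *Ogdh* encodes the αKG-binding component of the complex and held a complete cyclic AMP response element, *Dld* was 1 of the 2 genes whose groups did not overlap, and *Idh3g* encodes a regulatory subunit of IDH3 and had the lowest fold change of the IDH3 subunits. They are written 5′ to 3′ on the strand of the gene in lower case, and capitals mark matches to CCAAT, to the ETS core CCGGAAG or to the response element TGACGTCA on either strand.
Ogdh, chr11:6291467-6291596, plus strand: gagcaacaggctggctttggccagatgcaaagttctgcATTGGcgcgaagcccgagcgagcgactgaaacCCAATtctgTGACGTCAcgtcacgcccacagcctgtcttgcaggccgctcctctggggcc
Dld, chr12:31351472-31351601, minus strand: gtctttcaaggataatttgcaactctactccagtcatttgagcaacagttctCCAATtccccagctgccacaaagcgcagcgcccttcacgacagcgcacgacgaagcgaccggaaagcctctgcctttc
Idh3g, chrX:73786898-73787027, minus strand: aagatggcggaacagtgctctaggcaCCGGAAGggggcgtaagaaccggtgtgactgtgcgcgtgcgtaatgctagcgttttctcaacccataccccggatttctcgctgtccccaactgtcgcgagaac

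Over the full 250 bases before the start, CCAAT was found in 5 of the 9 promoters, against 33.8% of all 32851 promoters in the same table. CCGGAAG was found in 2 of 9 (6.9% of all promoters), the GC box GGGCGG in 4 of 9 (32.7%), TGACGTCA in 1 of 9 (1.5%) and the TATA sequence TATAAA in 1 of 9 (12.4%). The letters AAGGTCA, the core bound by oestrogen-related receptors, were in none of the 9 windows and in 4.1% of all promoters. Both strands were searched, and overlaps between different motifs were allowed. For *Idh2*, *Idh3b* and *Got2* the start used lay inside the gene of the deposited table, so part of each window was within the gene. The TATAAA of *Got2*, the CCAAT of *Idh3b* and the GC boxes of *Idh2* lay in that part. GC content of the 9 windows lay between 43.6% (*Dld*) and 82.0%, with a median of 52.4% over all promoters. These matches describe letters of the 250-base windows, printed only in part above. The printed windows of *Dld* and *Idh3g* were picked by expression values, but a relation between motifs and expression was not tested.

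The deposited values are read counts that the authors scaled by library-specific size factors and rounded, and are called normalized counts below. Their sums lay between 13393411 and 31722217 per library, and the mitochondrial rRNA gene *mt-Rnr2* took 61.8% to 80.8% of them, highest in Cpt1bcKO libraries 2 and 3. In 5 libraries the spacing of low values showed 1 read to be worth 0.682 to 1.29 normalized counts, and the lowest value of any of the 10 genes was 252. The counting error estimated from these reads was 0.914% to 6.21% of the value for the 10 genes. The targeted gene *Cpt1b* (chr15:89416405-89425863) was at 1861, 893 and 1443 in CtrlCre libraries 1, 2 and 3 and at 211, 353 and 285 in Cpt1bcKO libraries 1, 2 and 3, a log2 fold change of −2.27 ± 0.27 (SE) with a Benjamini–Hochberg-adjusted *P* value of 0.00338 (limma). The gene model *Gm44502* of GENCODE vM21, which is not listed in the deposited table, covers all 9459 bases of *Cpt1b* on the same strand. Cardiomyocyte markers were abundant (all 10 detected, summed 606020–712042 in CtrlCre and 393577–629871 in Cpt1bcKO libraries). Of the other marker lists, the sums of 8 fibroblast markers (498–785 against 1108–1338), 8 mural markers (3947–5139 against 2913–3318, with *Tagln* below 10 in every library) and the 3 detected of 4 atrial markers (146–265 against 477–720) did not overlap between the groups. Within the atrial list the separation came from *Nppa*, a natriuretic peptide gene that ventricular CMs also express under load (177, 93 and 144 against 683, 452 and 384 in libraries 1, 2 and 3), as the sums of the others (37–93 in Cpt1bcKO) lay within the CtrlCre range. By the methods of the study, atria were taken off after the perfusion digestion and the ventricles were processed further. Endothelial markers (8 of 8 detected) summed to 1377–2796 and 2434–2765, macrophage and leukocyte markers (6 of 8) to 79–109 and 95–103, and erythroid markers (2 of 5) to 3–20 and 1–18. The part of these differences in the values of the enzyme genes was not tested. The libraries numbered 1 in both groups held high *Xist* (957 and 1080, against 23–78 elsewhere) and 0 or 1 counts of the Y-linked genes *Ddx3y*, *Kdm5d*, *Uty* and *Eif2s3y*. *Ddx3y* was at 710 and 655 in CtrlCre libraries 2 and 3 and at 576 and 577 in Cpt1bcKO libraries 2 and 3. This is the pattern of female mice in the libraries numbered 1 and of male mice in the others, although the labels give no sex. Same-numbered libraries are therefore also compared below, as a description, since the numbers were not taken to pair the libraries.

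All 10 genes passed the filter on low values (at least 10 in at least 3 libraries), as did 11364 genes in all. None of the 10 reached an adjusted *P* value below 0.05 in limma, and none an unadjusted one, against 1.57% and 13.9% of all genes tested. Over the 10 genes, 7 were lower and 3 higher in Cpt1bcKO CMs (median −0.16 on the log2 scale), beside −0.001 over all genes tested, of which 50.2% were lower. The same 7 were lower and the same 3 higher under each of the 3 other scalings of the libraries, with a median of −0.046 when libraries were scaled by their summed nuclear-encoded, non-rRNA counts, which moved the median of all genes to 0.11. With 1 library left out in turn, the median of the 10 genes lay between −0.28 and −0.11. The lower end came without Cpt1bcKO library 1. The upper end came without Cpt1bcKO library 2, where 6 genes were lower and 4 higher. With all 6 libraries, groups did not overlap for 2 of the 10 genes, *Idh3a* and *Dld*, both lower in Cpt1bcKO. Of all genes tested, 18.7% did not overlap and 9.6% did not overlap with Cpt1bcKO lower. In RNA from a whole isolate, fewer cells of a type and less RNA per cell cannot be told apart.

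**Figure D1:**
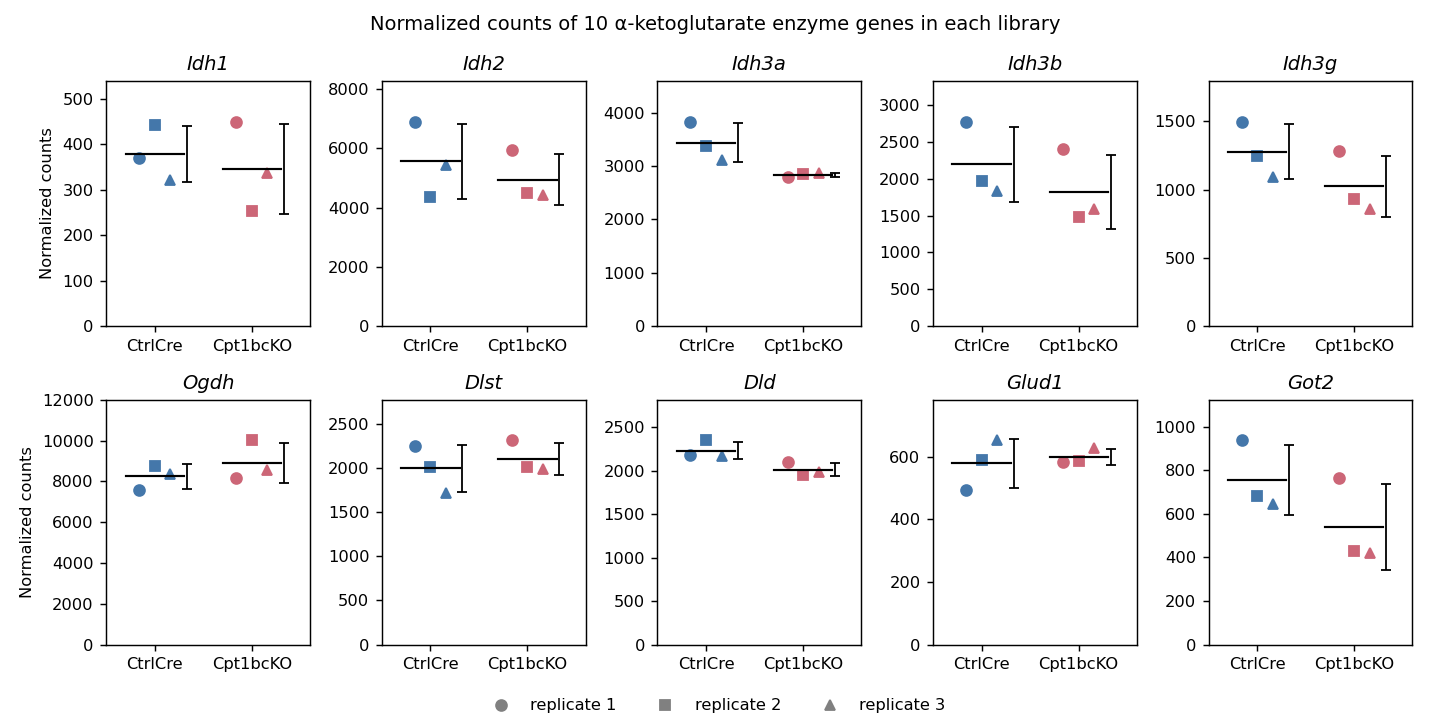
Normalized counts (vertical axes, each from 0) of the 10 genes in CtrlCre (blue) and Cpt1bcKO (red) libraries, with circles, squares and triangles for replicates 1, 2 and 3, horizontal lines for group means and bars for ± 1 SD (n = 3). The groups are separate only for *Idh3a* and *Dld*, and the 3 Cpt1bcKO values of *Idh3a* lie within 2793–2868.

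The subunits of NAD+-dependent isocitrate dehydrogenase each had a lower mean in Cpt1bcKO, without passing the test, and the groups were separate for *Idh3a* alone of them. *Idh3a* (ENSMUSG00000032279, chr9:54586334-54604661), the catalytic subunit, was at 3831, 3384 and 3110 normalized counts in CtrlCre libraries 1, 2 and 3 and at 2793, 2849 and 2868 in Cpt1bcKO libraries 1, 2 and 3. Every Cpt1bcKO value lay below every CtrlCre value. The means were 3442 ± 364 (SD, n = 3) and 2837 ± 39.0 (SD, n = 3), so that the coefficient of variation was 10.6% in CtrlCre and 1.38% in Cpt1bcKO, the latter below the estimated counting error of 1.56% and 2.12% in Cpt1bcKO libraries 1 and 3. The log2 fold change was −0.27 ± 0.14 (SE; limma, unadjusted *P* value 0.0702, adjusted 0.405), which is 0.827-fold with a 95% interval of 0.672 to 1.02. Across all alternatives tried it stayed between −0.34 and −0.16 (adjusted *P* values 0.175 to 0.706).

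*Idh3b* (ENSMUSG00000027406, chr2:130279309-130284547) encodes a non-catalytic subunit and was at 2771, 1973 and 1834 in CtrlCre and 2400, 1479 and 1585 in Cpt1bcKO libraries 1, 2 and 3. The Cpt1bcKO library 1 lay above 2 of the 3 CtrlCre libraries, so the groups overlapped, although each Cpt1bcKO library was below the CtrlCre library with its number (log2 differences −0.21, −0.42 and −0.21). Its fold change was 0.825 (95% interval 0.593 to 1.15, adjusted *P* value 0.612 in limma). The log2 fold change of −0.28 became −0.097 without CtrlCre library 1 and −0.49 without Cpt1bcKO library 1. *Idh3g* (ENSMUSG00000002010, chrX:73778963-73786897), the regulatory subunit whose promoter is printed above, was at 1497, 1250 and 1092 in CtrlCre and 1281, 934 and 855 in Cpt1bcKO. Library 1 was again the highest of each group, and the groups overlapped through it alone. Same-numbered libraries differed by −0.22, −0.42 and −0.35 on the log2 scale, and the fold change was 0.794 (95% interval 0.598 to 1.05, adjusted *P* value 0.453 in limma). Its log2 value of −0.33 became −0.51 without Cpt1bcKO library 1 and −0.21 without CtrlCre library 1 or Cpt1bcKO library 3. *Idh3b* shares 5 bases with *Nop56* on the opposite strand, which averaged 81.0 normalized counts.

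Levels of different genes were compared per kilobase of merged exons, with exon lengths from GENCODE vM21. With this length the IDH3 subunits in CtrlCre were at 679 ± 71.8 normalized counts per kb for *Idh3a*, 641 ± 148 for *Idh3b* and 474 ± 75.6 for *Idh3g* (SD, n = 3). Within each library, the log2 ratio of *Idh3b* to *Idh3a* per kb was −0.10 ± 0.18 in CtrlCre and −0.11 ± 0.40 in Cpt1bcKO. That of *Idh3g* to *Idh3a* was −0.53 ± 0.08 and −0.58 ± 0.33. Both ratios overlapped between groups, and both spread more widely in Cpt1bcKO, where library 1 held the highest value (0.35 and −0.22) and where *Idh3a* itself hardly varied. With the longest transcript as the length, the CtrlCre levels were 1334, 1070 and 615 per kb, and the ratios to *Idh3a* in CtrlCre were −0.34 for *Idh3b* and −1.12 for *Idh3g*.

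Values of both NADP+-dependent isocitrate dehydrogenases overlapped between the groups. *Idh2* (ENSMUSG00000030541, chr7:80094846-80115392), the mitochondrial enzyme that makes NADPH, was at 6894, 4355 and 5442 in CtrlCre and 5950, 4481 and 4408 in Cpt1bcKO libraries 1, 2 and 3. The libraries numbered 1 were the highest of both groups. Its log2 fold change was −0.16 ± 0.20 (SE), or 0.896-fold with a 95% interval of 0.664 to 1.21 (adjusted *P* value 0.770 in limma). Without CtrlCre library 1 the log2 fold change was 0.0089, and without both libraries numbered 1 it was −0.13. The direction thus depended on which libraries were kept. The overlapping gene model *Gm45203*, on the same strand within *Idh2*, averaged 34.8 normalized counts.

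*Idh1* (ENSMUSG00000025950, chr1:65158616-65186479), the cytosolic and peroxisomal enzyme, was at 370, 443 and 322 in CtrlCre and 449, 252 and 336 in Cpt1bcKO libraries 1, 2 and 3. Both the highest and the lowest value belonged to Cpt1bcKO, and same-numbered libraries differed by 0.28, −0.81 and 0.06 on the log2 scale. The fold change was 0.897 (95% interval 0.642 to 1.25, adjusted *P* value 0.796 in limma), and it turned to a log2 value of 0.050 without Cpt1bcKO library 2. Per kb, *Idh2* was the most abundant of the 10 genes (2150 ± 492 in CtrlCre, rank 40 of 10383 protein-coding genes tested) and *Idh1* the least (137 ± 22.0, rank 785). The log2 ratio of *Idh1* to *Idh2* had a mean of −3.96 in both groups (SD 0.50 in CtrlCre and 0.25 in Cpt1bcKO).

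Among components of the 2-oxoglutarate dehydrogenase complex, *Ogdh* and *Dlst* had higher and *Dld* lower means in Cpt1bcKO, and none passed the test. *Ogdh* (ENSMUSG00000020456, chr11:6291633-6356642), which encodes the αKG-decarboxylating E1 component, was at 7591, 8780 and 8383 in CtrlCre and 8163, 10015 and 8543 in Cpt1bcKO libraries 1, 2 and 3. Each Cpt1bcKO library was above the CtrlCre library with its number (log2 differences 0.10, 0.19 and 0.03), while the groups overlapped. The means were 8251 ± 605 and 8907 ± 978 (SD, n = 3), and the fold change was 1.08 (95% interval 0.855 to 1.36, adjusted *P* value 0.798 in limma). Its log2 fold change of 0.11 became 0.020 without Cpt1bcKO library 2 and 0.048 without CtrlCre library 1. It became 0.17 without Cpt1bcKO library 1 and 0.15 without CtrlCre library 2. *Dlst* (ENSMUSG00000004789, chr12:85110833-85134088), encoding the succinyltransferase E2, was at 2257, 2022 and 1724 in CtrlCre and 2319, 2018 and 1993 in Cpt1bcKO. Values in the groups were intermingled, the fold change was 1.06 (95% interval 0.843 to 1.33, adjusted *P* value 0.849), and without CtrlCre library 3 the log2 fold change was −0.021.

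*Dld* (ENSMUSG00000020664, chr12:31331277-31351453) encodes the E3 component, a dihydrolipoamide dehydrogenase that pyruvate and branched-chain 2-oxoacid dehydrogenases share. It was at 2177, 2351 and 2173 in CtrlCre and at 2101, 1957 and 1985 in Cpt1bcKO libraries 1, 2 and 3. The highest Cpt1bcKO value lay just under the lowest CtrlCre value, and both groups were tight (coefficients of variation 4.55% and 3.79%). The fold change of 0.902 had a 95% interval of 0.743 to 1.10 (log2 −0.15 ± 0.13, SE; adjusted *P* value 0.650 in limma). When libraries were scaled by their summed nuclear-encoded, non-rRNA counts, *Dld* overlapped (log2 fold change −0.037) and *Ogdh* did not (0.22).

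Of 7 ratios between these genes that were computed within libraries, that of E3 to E1 was the one whose groups did not overlap. Single genes did not overlap in 18.7% of all genes tested, *Dld* among them, and no such share was computed for ratios. The log2 ratio of *Dld* to *Ogdh* per kb was −1.24, −1.33 and −1.38 in CtrlCre and −1.39, −1.79 and −1.54 in Cpt1bcKO libraries 1, 2 and 3. All Cpt1bcKO ratios were lower, by 0.26 on average, but the gap between the nearest libraries of the 2 groups was narrow. A ratio within a library does not depend on the scaling of that library, and it received no test. The ratio of *Dlst* to *Ogdh* had means of −2.86 ± 0.27 in CtrlCre and −2.89 ± 0.25 in Cpt1bcKO and overlapped.

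**Figure D2:**
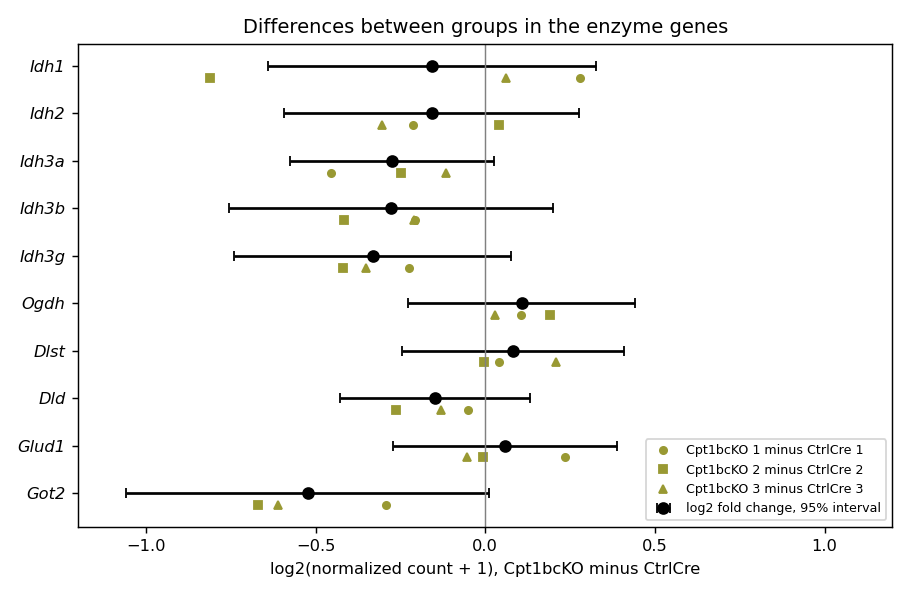
Differences in log2(normalized count + 1), Cpt1bcKO minus CtrlCre (horizontal axis), for the 10 genes, with black circles and bars for the limma estimate and its 95% interval and small symbols for each same-numbered comparison. All 10 intervals include 0, and *Idh3a*, *Idh3b*, *Idh3g*, *Dld* and *Got2* have their 3 small symbols left of 0.

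In the glutamate route, *Got2* had a lower mean in Cpt1bcKO and *Glud1* a slightly higher one, and neither passed the test. *Got2* (ENSMUSG00000031672, chr8:95864134-95888547), the mitochondrial aspartate aminotransferase, was at 937, 681 and 643 in CtrlCre and 765, 428 and 421 in Cpt1bcKO libraries 1, 2 and 3. Cpt1bcKO library 1 lay above 2 CtrlCre libraries, and the other 2 Cpt1bcKO libraries lay below all CtrlCre libraries. The means were 754 ± 160 and 538 ± 197 (SD, n = 3). The log2 fold change of −0.52 ± 0.24 (SE) was the largest of the 10 genes, or 0.696-fold with a 95% interval of 0.480 to 1.01 (limma, unadjusted *P* value 0.0542, adjusted 0.368). Without Cpt1bcKO library 1 it passed the test (log2 fold change −0.81, adjusted *P* value 0.0418, where 2.9% of all genes passed), and so it did without both libraries numbered 1 (−0.64, adjusted *P* value 0.0491, where 2.1% passed). Over all alternatives its adjusted *P* value in limma ranged from 0.0335 to 0.755. The lowest came with the replicate number as a block, under which it was also called and where 5.31% of all genes passed. The gene model *Gm45760* lies on the opposite strand within *Got2*, and the use of strand in counting is not given in the sources used here.

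*Glud1* (ENSMUSG00000021794, chr14:34310727-34345144), encoding the mitochondrial glutamate dehydrogenase, was at 495, 588 and 652 in CtrlCre and 583, 585 and 628 in Cpt1bcKO libraries 1, 2 and 3. All Cpt1bcKO values fell within the CtrlCre range, with a coefficient of variation of 4.25% that was close to the estimated counting error (3.42% and 4.54% in Cpt1bcKO libraries 1 and 3). Its fold change was 1.04 (95% interval 0.829 to 1.31, adjusted *P* value 0.899 in limma), and without CtrlCre library 1 the log2 fold change was −0.049. The log2 ratio of *Glud1* to *Got2* per kb had a mean of −0.17 ± 0.49 in CtrlCre and 0.41 ± 0.53 in Cpt1bcKO, a difference of 0.58 with overlapping values. With the longest transcript the means were −0.79 and −0.21, so the sign of the ratio in Cpt1bcKO depended on the length used, while the difference did not. *Glud1* and *Got2* have annotated pseudogenes, and reads that aligned to several places were excluded by the authors, so reads from stretches shared with those copies are not in the counts.

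Per kb of merged exons, the order of levels in CtrlCre was *Idh2*, *Ogdh*, *Idh3a*, *Idh3b*, *Dld*, *Idh3g*, *Dlst*, *Got2*, *Glud1* and *Idh1*. *Ogdh* (1512 ± 111 per kb, rank 63 of 10383) followed *Idh2*, and the IDH3 subunits and *Dld* (607 ± 27.6, rank 158) formed the next group. With merged exons, *Idh3a*, *Idh3b* and *Dld* lay within their SDs of each other, as did *Idh3b* and *Idh3g*. *Dlst* (209 ± 27.9), *Got2* (156 ± 33.2), *Glud1* (137 ± 18.8) and *Idh1* were lowest, and neighbours among these did not differ beyond their SDs. With the length of the longest transcript the level of *Dlst* was 621 per kb, above *Idh3g* at 615, and the other places in the order were the same. With that length *Idh3a* (1334 ± 141) and *Dld* (878 ± 40.0), *Idh3b* (1070 ± 247) and *Idh3g*, *Dlst* and *Got2* (298 ± 63.2), and *Got2* and *Glud1* (171 ± 23.3) each differed by more than their SDs. Even *Idh1*, the least abundant with either length, ranked in the top 7.55% of protein-coding genes tested with merged exons and in the top 8.56% with the longest transcript.

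**Figure D3:**
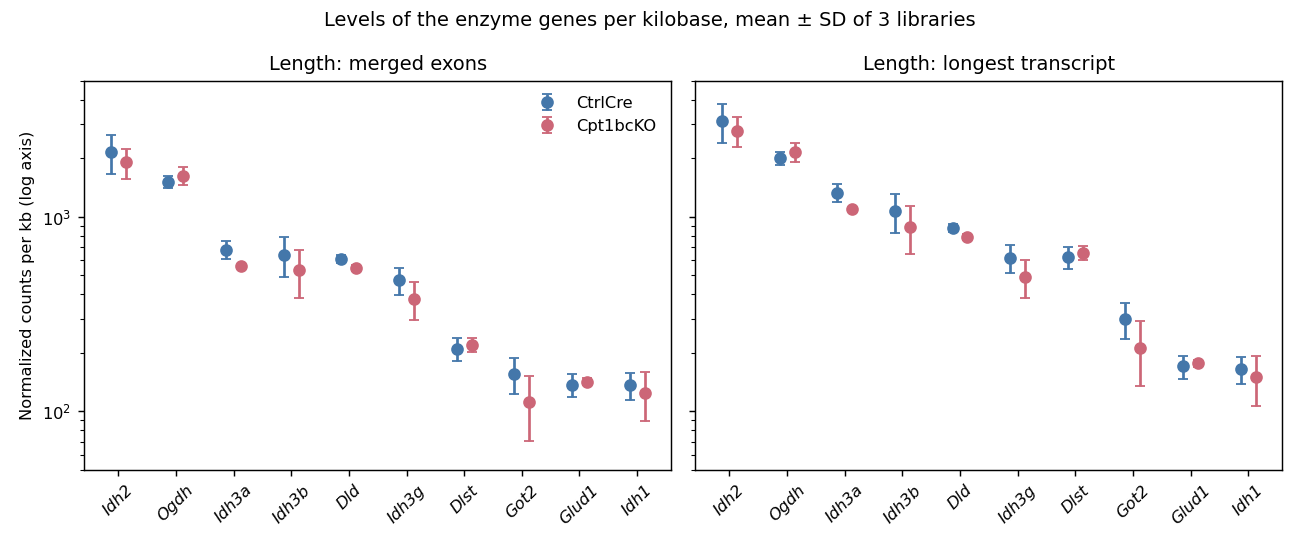
Normalized counts per kb (log axis) of the 10 genes in CtrlCre (blue) and Cpt1bcKO (red), as mean ± SD of 3 libraries, with merged exons (left) or the longest transcript (right) as the length. Levels run from 2150 for *Idh2* to 137 for *Idh1* in CtrlCre with merged exons, and *Dlst* moves most between the panels.

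Libraries of the same group differed among themselves over the 10 genes. As a median over the genes, CtrlCre libraries 1, 2 and 3 differed from the CtrlCre mean by 0.17, 0.002 and −0.17 on the log2 scale, and Cpt1bcKO libraries 1, 2 and 3 by 0.03, −0.28 and −0.21. Library 1 was the highest of its group for 6 of the 10 genes in CtrlCre and for 7 in Cpt1bcKO. Compared with the CtrlCre library of the same number, 6, 8 and 7 genes were lower in Cpt1bcKO libraries 1, 2 and 3, with medians of −0.13, −0.26 and −0.12. *Idh3a*, *Idh3b*, *Idh3g*, *Dld* and *Got2* were lower in all 3 of these comparisons, as were 21.6% of all genes tested. Without both libraries numbered 1 the groups did not overlap for the same 5 genes, where 47.1% of all genes tested did not. Standard errors of the 10 genes were 0.13 to 0.24 on the log2 scale, at or below the median of 0.26 over all genes tested. The 95% intervals reached down to between 0.480- and 0.855-fold and up to between 1.01- and 1.36-fold, so larger differences than these lay outside them.

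By the root mean square (RMS) difference between centred log2 profiles over the 6 libraries, the closest pairs among the 10 genes were *Idh3b* with *Idh3g* (0.11), *Idh3a* with *Dld* (0.12) and *Ogdh* with *Glud1* (0.13). Against 6796 genes with a mean of at least 50, the profile of *Idh3a* was nearest to *Actc1* (0.04), *Clcn4* (0.04) and *Rraga* (0.05). *Actc1*, cardiac α-actin, was at 29707, 25300 and 24426 in CtrlCre and 20951, 20806 and 22122 in Cpt1bcKO libraries 1, 2 and 3, with the same separation of the groups (adjusted *P* value 0.440 in limma). *Idh2* was nearest to *Apbb1* (0.03), *Lrrc39* (0.04) and *Nicn1* (0.05), and *Ogdh* to *Ikbkap*, *Nxf1* and *Fsd1l* (0.05 to 0.06). The median RMS difference to all compared genes was 0.32 for *Idh2*, 0.27 for *Idh3a* and 0.28 for *Ogdh*. *Idh3a* itself was at 0.20 from *Idh3g* and at 0.25 from *Idh3b*, and 2846 of the 6796 genes were no farther from it than *Idh3b*.

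Genes around the same reactions were taken from 5 pathway lists of 69 genes, of which 57 were tested. None reached an adjusted *P* value below 0.05 in limma, and 10 of the 57 had an unadjusted one below 0.05, beside 13.9% of all genes tested. With the replicate number as a block, 7 passed adjusted, where 5.31% of all genes did. Without Cpt1bcKO library 3, 1 passed, where 1.31% of all genes did. In the list of 11 other TCA cycle enzymes, all 11 were lower in Cpt1bcKO (median log2 fold change −0.25, range −0.48 to −0.06), 8 of them with scaling to summed nuclear-encoded, non-rRNA counts, where all 11 were below the median of all genes. Groups overlapped for all 11, whereas 18.7% of all genes tested did not overlap. Without CtrlCre library 1, 9 of the 11 were lower, and the list's median was −0.11. The lowest unadjusted *P* values belonged to subunits of succinate dehydrogenase, which follows the αKG step by way of succinate. *Sdhc*, a membrane anchor, was at 989, 687 and 721 in CtrlCre and 754, 485 and 490 in Cpt1bcKO libraries 1, 2 and 3 (log2 fold change −0.48, unadjusted *P* value 0.0423, adjusted 0.339 in limma). *Sdha*, the flavoprotein, had −0.41 (adjusted 0.422) and *Sdhb*, the iron–sulfur subunit, −0.31 (adjusted 0.426). *Sdhd*, the other membrane anchor, had −0.07 (unadjusted *P* value 0.594, adjusted 0.851). For *Sdhc*, *Sdha* and *Sdhb*, Cpt1bcKO library 1 overlapped with CtrlCre, as it did for *Got2* and *Idh3g*.

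Of 26 other enzymes that make or use αKG or glutamate, 19 were tested, with 8 higher and 11 lower (median −0.03), and groups that did not overlap for 5. The median lay between −0.13 (without CtrlCre library 1) and 0.09 (without CtrlCre library 2) when a library was left out, and scaling by summed nuclear-encoded, non-rRNA counts gave 11 higher and 8 lower. *Glul*, glutamine synthetase, was at 1599, 1741 and 1206 in CtrlCre and 2640, 2329 and 2012 in Cpt1bcKO libraries 1, 2 and 3. Its log2 fold change was 0.63 ± 0.17 (SE; limma, unadjusted *P* value 0.00436, adjusted 0.126). *Aldh18a1*, which starts proline synthesis from glutamate, was low in CtrlCre at 11, 5 and 21, and stood at 35, 46 and 39 in Cpt1bcKO (log2 fold change 1.81, adjusted *P* value 0.0928). *Gpt*, an alanine aminotransferase, had the opposite direction, at 115, 84 and 81 against 64, 47 and 56 (log2 fold change −0.73, adjusted *P* value 0.177). The 3 genes were separate between the groups, as 18.7% of all genes tested were.

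Among 14 other genes of 2-oxoacid dehydrogenases and lipoate attachment, which share E3 or its cofactor with the αKG complex, 12 were tested, 7 higher and 5 lower (median 0.03), with 3 of 12 not overlapping, beside that 18.7%. The split turned to 5 higher and 7 lower without CtrlCre library 2 (median −0.04) or without Cpt1bcKO library 1 (median −0.08). It was 8 higher and 4 lower without CtrlCre library 1 or without Cpt1bcKO library 2 (median 0.11 in each). *Pdhx*, which binds E3 to the pyruvate dehydrogenase complex, was at 866, 873 and 744 in CtrlCre and 1176, 1067 and 1137 in Cpt1bcKO libraries 1, 2 and 3 (log2 fold change 0.45 ± 0.13, SE; limma, unadjusted *P* value 0.00742, adjusted 0.162). *Dbt*, the E2 of the branched-chain complex, was at 595, 465 and 475 against 363, 305 and 401 (−0.52, adjusted *P* value 0.186), and *Bckdhb*, an E1 subunit of that complex, at 333, 201 and 185 against 184, 148 and 173 (−0.46, adjusted *P* value 0.404).

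Of 9 carriers and partners of the malate–aspartate and αKG routes, 6 were tested, 3 higher and 3 lower (median 0.03), with 1 of 6 not overlapping (18.7% of all genes tested). The median of these 6 ranged from −0.05 to 0.10 with a library left out. *Slc25a22*, a mitochondrial glutamate carrier, was at 70, 74 and 22 in CtrlCre and 150, 127 and 96 in Cpt1bcKO libraries 1, 2 and 3 (log2 fold change 1.31, adjusted *P* value 0.176 in limma). *Mdh1*, the cytosolic malate dehydrogenase of the shuttle, had −0.24 (adjusted *P* value 0.497), and *Slc25a13*, an aspartate–glutamate carrier, 0.14 (adjusted *P* value 0.747). All 9 genes for NADPH and mitochondrial deacylases were tested, with 7 higher and 2 lower (median 0.21), and 2 of 9 did not overlap, again beside 18.7%. Their median was 0.06 without Cpt1bcKO library 1 and 0.38 without Cpt1bcKO library 2, and without Cpt1bcKO library 3 the split was 5 higher and 4 lower. *Me2*, mitochondrial malic enzyme, was at 30, 34 and 35 against 80, 80 and 39 (0.92, adjusted *P* value 0.205). *Me1*, the cytosolic malic enzyme, was at 550, 511 and 372 against 887, 707 and 493 (0.52, adjusted *P* value 0.345), and *Pgd*, of the pentose phosphate pathway, at 56, 55 and 52 against 65, 76 and 78 (0.42, adjusted *P* value 0.400).

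**Figure D4:**
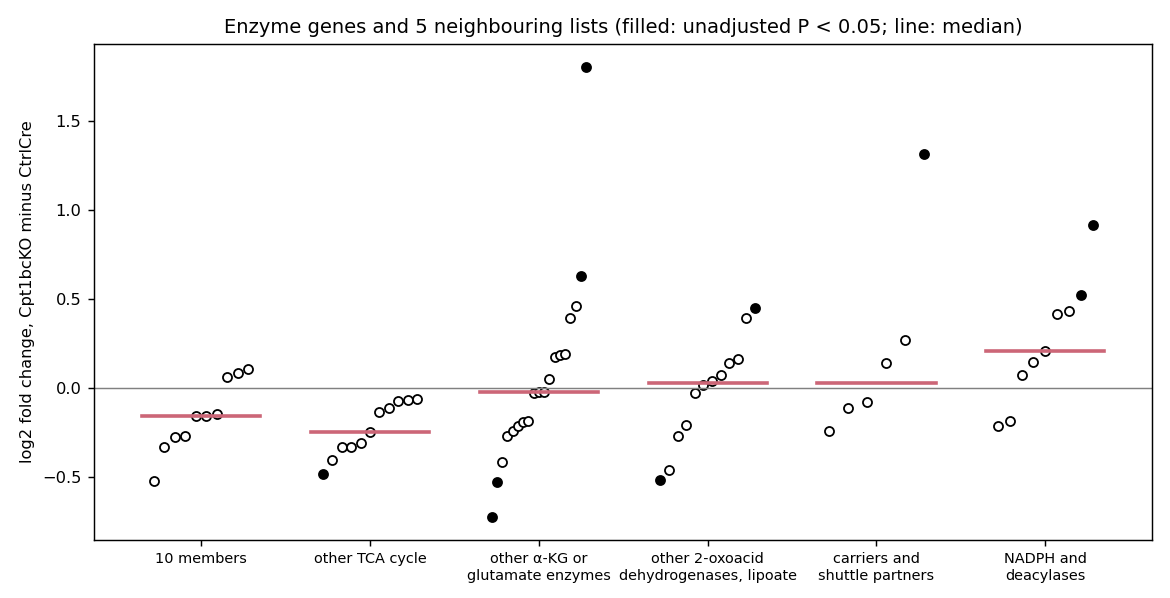
Log2 fold change, Cpt1bcKO minus CtrlCre (vertical axis), of the 10 genes and of the tested genes of 5 pathway lists, each point a gene, filled where the unadjusted *P* value was below 0.05, with red lines for list medians. None of the 10 genes is filled, their median is −0.16, and all 11 other TCA cycle enzymes lie below 0 on this scaling.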

How the data were processed

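CM RNA (3 CtrlCre and 3 Cpt1bcKO libraries) was sequenced as single-end reads of total RNA. According to the submitters' processing notes and the study's methods, the authors trimmed reads (Trimmomatic 0.36), aligned them to mm10 (STAR 2.5.4b), counted reads in exons per gene (featureCounts 1.6.0), excluding reads on multiple genes or regions, and compared groups with DESeq2 1.14.1. The annotation release and the use of strand in counting are not given in the sources used here. The deposited values are a normalized score, namely counts that the authors divided by a size factor and rounded, so no count model was fitted. Columns with the authors' means, fold changes and *P* values were not used.

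Values were transformed to log2(value + 1), a scale that understates changes of low genes. Genes with at least 10 in at least 3 libraries were fitted with limma 3.58.1 (R 4.3.3, lmFit and eBayes with trend) on all 6 libraries, and *P* values were adjusted over all 11364 tested genes (Benjamini–Hochberg). The fit was tested on simulated data. Named genes are the 10 genes, *Cpt1b*, the 3 lowest unadjusted *P* values of each pathway list (any adjusted value below 0.05 would have been added) and the 3 nearest profiles of *Idh2*, *Idh3a* and *Ogdh*. *mt-Rnr2*, marker and sex-linked genes and overlapping gene models serve as checks, and *Sdhd* and *Nppa* were named after their values were seen. The members and lists were chosen with earlier results of these data known. Coordinates are those of the deposited table (GRCm38). Lengths came from GENCODE vM21, matched by identifier for 16427 genes (99.9%), where 7 of the 10 genes had the same start and end. Alternatives were other scalings (median of ratios, trimmed mean of M values, sums of nuclear-encoded, non-rRNA counts), filters, pseudocounts (0.5 and 5), no trend, a replicate block and leaving out libraries. Tables were made in Python 3.11.15 with pandas 2.3.3 and matplotlib 3.10.9.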

Additional observations from a re-analysis of the deposited data

How the results depend on the processing

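With 3 libraries a group, differences below about the intervals given could not be resolved, and the cause of the changes below was not tested. The 10 genes gave 160 values under the alternatives, of which 152 kept their direction and call. The filters, the fit without trend and the replicate block leave a fold change as it was, so only the call could move there. All changes of direction came with libraries left out. The log2 fold change turned direction for *Idh1* (0.050 without Cpt1bcKO library 2; −0.37 to 0.050 over the libraries left out in turn), *Idh2* (0.0089 without CtrlCre library 1; −0.32 to 0.0089), *Dlst* (−0.021 without CtrlCre library 3; −0.021 to 0.17) and *Glud1* (−0.049 without CtrlCre library 1; −0.049 to 0.15). Without both libraries numbered 1, an alternative chosen after seeing the data that keeps only libraries with high Y-linked counts, *Glud1* had −0.031. *Got2* was the gene that became called. Without both libraries numbered 1, 1 of the 10 genes passed an adjusted and 3 an unadjusted *P* value below 0.05 (17.7% of all genes unadjusted), 5 did not overlap in place of 2 (47.1% of all genes in place of 18.7%), and 116 of all genes were called higher and 123 lower by adjusted *P* value. Without the filter 1 of the 10 genes passed unadjusted, as did 12% of all genes. Over all genes, 23 were called higher and 18 lower by adjusted *P* value without the trend, in place of 75 and 103, and scaling to summed nuclear-encoded, non-rRNA counts gave 1221 higher and 505 lower unadjusted, in place of 757 and 821. Leaving out 1 library at a time gave 0 to 1 of the 10 genes adjusted and 0 to 3 unadjusted, 19 to 150 genes higher and 23 to 179 lower adjusted, 459 to 1032 higher and 548 to 1230 lower unadjusted, and 0 to 1 pathway list genes adjusted and 6 to 14 unadjusted. The lowest of these counts over all genes came without Cpt1bcKO library 2 and the highest without Cpt1bcKO library 1.

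With the replicate block, 1 of the 10 genes (*Got2*, adjusted *P* value 0.0335) was called, 4 had an unadjusted *P* value below 0.05, 7 pathway list genes passed adjusted and 20 unadjusted, and over all genes 249 were higher and 354 lower adjusted, and 1073 higher and 1289 lower unadjusted, which is 5.31% adjusted and 20.8% unadjusted. Deviations from the group means correlated between same-numbered libraries with *r* of 0.376, 0.255 and 0.0684 for numbers 1, 2 and 3, and between other numbers with −0.329 to 0.147, across genes, which are not independent replicates. CtrlCre library 3 correlated more with Cpt1bcKO library 2 (0.119) than with its own number, so the numbers were not taken to pair the libraries.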
